A study of Rattus norvegicus with 12 samples.

Results

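Alcohol, aldehyde and aldo-keto dehydrogenases were compared between passaged rat small hepatocytes, a progenitor-like population of the liver, on 3 coatings and mature hepatocytes, with 12 one-colour microarrays. The genes were chosen by name: every gene of the array design whose name begins with Adh, Aldh or Akr and a digit was taken, whatever its signal. That gave 45 genes of the 35910 gene names on the array, read by 60 probes. They were 6 alcohol dehydrogenases (Adh), 19 aldehyde dehydrogenases (Aldh) and 20 aldo-keto reductases (Akr), the last with the pseudogenes Akr1b1-ps1 and Akr1b1-ps3. All cells came from livers of F344 rats, described in the labels as a DPPIV+ strain. Small hepatocytes, obtained by collagenase perfusion, formed colonies in serum-free medium and were sorted for CD44 with magnetic beads on day 9. The sorted cells were grown on Matrigel (a basement membrane extract), and at passage 2 they were placed for 3 h on dishes coated with laminin-111, with laminin-511 or with Matrigel, groups named LN111, LN511 and Mat here. Their medium held 10 ng/mL epidermal growth factor, 10 mM nicotinamide, dexamethasone, insulin and proline. The control, mature hepatocytes (MH), was prepared directly from fresh livers and so differs from the other groups in culture, sorting and passage together. Each of the 4 groups had 3 arrays, and the labels do not say whether these came from separate animals or cultures, so p-values measure only the spread between these samples.

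The 3 families handle alcohols and carbonyl compounds. Alcohol dehydrogenases oxidise alcohols such as ethanol and retinol to aldehydes or ketones, aldehyde dehydrogenases oxidise aldehydes to acids, and aldo-keto reductases reduce aldehydes and ketones, steroids and sugars among them. Hepatocytes are the main site of ethanol oxidation and hold most of these enzymes. Within each family some members serve detoxification and others belong to a fixed step of amino acid, folate, retinoid or bile acid metabolism.

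Sequences are shown for members on which the results below turn. The first set is the upstream region of 3 Akr1b genes that lie side by side, because 1 of them rose in culture while both others were not well above background on almost every array. The sequences are from RefSeq (GRCr8), 250 bases up to the base before the transcription start, 5′ to 3′, and capitals mark a match to a searched motif. Akr1b8 lies at chr4:63964171-63964420 (+).
Akr1b8: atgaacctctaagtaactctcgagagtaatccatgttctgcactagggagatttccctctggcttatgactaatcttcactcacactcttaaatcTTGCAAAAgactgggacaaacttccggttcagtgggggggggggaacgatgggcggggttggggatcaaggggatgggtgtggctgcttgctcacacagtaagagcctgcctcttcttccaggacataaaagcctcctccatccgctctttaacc
Akr1b10: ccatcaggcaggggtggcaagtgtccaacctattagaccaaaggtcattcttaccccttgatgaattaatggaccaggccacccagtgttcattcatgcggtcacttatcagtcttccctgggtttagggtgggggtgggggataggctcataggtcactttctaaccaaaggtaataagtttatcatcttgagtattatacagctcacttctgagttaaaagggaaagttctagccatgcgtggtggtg
Akr1b7: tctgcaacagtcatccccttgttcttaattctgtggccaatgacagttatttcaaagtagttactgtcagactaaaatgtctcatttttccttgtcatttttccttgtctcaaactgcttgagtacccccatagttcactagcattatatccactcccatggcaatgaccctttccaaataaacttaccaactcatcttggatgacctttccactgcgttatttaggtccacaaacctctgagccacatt
Akr1b10 is at chr4:64005382-64005631 (+) and Akr1b7 at chr4:64043720-64043969 (+). The capitals in Akr1b8 are a C/EBP motif (TTGCNNAA) that begins 155 bases before the start. The other windows of this set hold none of the 4 motifs searched.

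The second set is the upstream region of 2 retinal dehydrogenase genes, because Aldh1a3 was higher and Aldh1a1 lower on LN111 than on LN511. Aldh1a1 is at chr1:227537370-227537619 (+) and Aldh1a3 at chr1:129427644-129427893 (-).
Aldh1a1: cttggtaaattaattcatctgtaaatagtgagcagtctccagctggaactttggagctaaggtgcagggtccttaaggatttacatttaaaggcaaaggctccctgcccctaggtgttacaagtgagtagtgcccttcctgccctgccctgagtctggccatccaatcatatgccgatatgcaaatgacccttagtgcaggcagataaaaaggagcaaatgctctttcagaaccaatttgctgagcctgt
Aldh1a3: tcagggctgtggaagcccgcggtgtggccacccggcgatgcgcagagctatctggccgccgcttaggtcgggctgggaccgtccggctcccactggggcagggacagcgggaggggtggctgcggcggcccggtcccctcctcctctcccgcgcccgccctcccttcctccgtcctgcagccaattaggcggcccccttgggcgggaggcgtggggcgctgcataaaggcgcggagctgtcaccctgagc
Neither window holds a searched motif. The motifs were searched on both strands: the core of the antioxidant response element (TGACNNNGC), the AP-1 site (TGANTCA), the C/EBP site and the TATA box (TATAAA). RefSeq gave an upstream window for 35 of the 45 members. Of these, 3 held the antioxidant response element core (Akr1c15, Aldh16a1 and Aldh1a2), against 10.1% of all 33469 windows. The AP-1 site was in 3 (Adh1c, Adh7 and Akr1c2; 6.34% of all windows), the C/EBP site in 4 (Akr1b8, Akr1c2, Akr7a3 and Aldh3b1; 9.22%) and the TATA box in 5 (Adh4, Adh6, Akr1c19, Akr1c3 and Aldh4a1; 12.9%). A match is a string of letters and not a shown binding site.

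The third set is a pair of array probes, because 1 gene may be read by both. The probe of Akr1b1 and that of its pseudogene Akr1b1-ps1 overlap over 48 bases with 8 mismatches, which stand in capitals.
Akr1b1: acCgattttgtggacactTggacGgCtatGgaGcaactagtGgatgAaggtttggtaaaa
Akr1b1-ps1: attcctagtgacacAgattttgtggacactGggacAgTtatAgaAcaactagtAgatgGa
No other pair of probes from different members reached 80% identity over at least 40 bases. The value of Akr1b1-ps1 is therefore uncertain. Both Akr1b10 probes have the same 60 bases, and the 2 Aldh9a1 probes share 56 bases, so each of these pairs is in effect a single measurement.

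All values below are log2 levels, that is, the log2 of a probe's processed signal minus the 75th percentile of its array, so that 0 is that percentile. Levels of different probes are not comparable with each other. Between 52.18% and 62.75% of spots were well above background, and no spot was saturated. Repeated probes of the third LN111 array had a median coefficient of variation of 8.29%, against 2.81% to 3.67% on the other arrays. All 12 hepatocyte markers were above background in MH, where their summed level (in units of the 75th percentile) was 1150 to 1420, and 10 or 11 of them were on the cultured arrays, with sums of 178 to 499. All 10 biliary and progenitor markers, Cd44 among them, were above background on every cultured array (sums of 24.8 to 113) and 2 or 3 in MH (0.725 to 0.822). MH also held all 11 Kupffer cell markers (31.2 to 33.3, against 0.257 to 3.44 in culture) and all 8 endothelial markers measured (8.98 to 9.82, against 0.0993 to 0.63). Erythroid markers summed to 1.72 to 2.42 in MH and 0.397 to 0.671 in culture, and lymphocyte and neutrophil markers to 0.304 to 0.383 and 0.108 to 0.804. The part of other cell types in the differences from MH was not tested. In these bulk samples fewer cells of a type and less RNA per cell cannot be told apart.

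Most members were lower in culture than in mature hepatocytes. Of the 39 members that could be tested (a probe well above background on every array of 1 or more groups), 35 passed an adjusted p of 0.05 for the mean of the 9 cultured arrays against MH, 28 lower and 7 higher. Over all 18942 genes tested the same rule called 72.8%, 42% lower and 30.8% higher. All 4 tested alcohol dehydrogenases fell. Among 18 aldehyde dehydrogenases 12 fell, 4 rose and 2 did not pass. Among 17 aldo-keto reductases 12 fell, 3 rose (Akr1b8, Akr1b1 and the pseudogene Akr1b1-ps1) and 2 did not pass. The median log2 difference was -5.57 for Adh, -3.19 for Aldh and -2.58 for Akr, against -0.18 over all genes. All 9 cultured arrays lay below all 3 MH arrays for 28 members and above them for 5, against 35.3% and 22.2% of all genes. Adh4 entered the test through MH alone, and Aldh18a1, Aldh1a2, Aldh3a1 and Akr1b1-ps1 through the cultured groups alone, so these 5 had to differ. The 6 members not tested were Adh6, Adh6a, Aldh1a7, Akr1b7, Akr1b10 and Akr1b1-ps3.

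**Figure D1:**
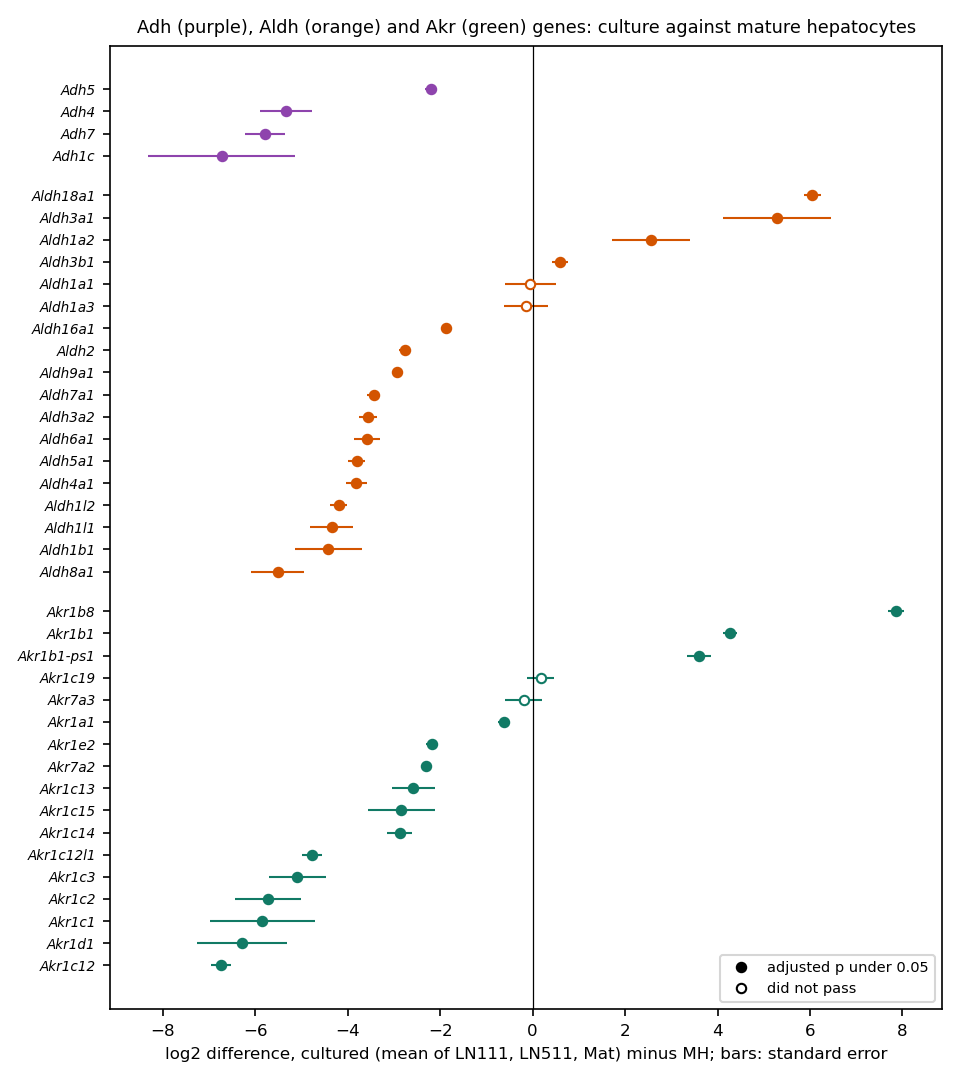
Log2 difference between the mean of the cultured groups and MH for the 39 tested members, by family, with standard errors; filled points passed an adjusted p of 0.05. Of 39 members 28 lie to the left of 0 and passed, from Akr1c12 at -6.74 to Akr1a1 at -0.63, and 7 lie to the right and passed, from Aldh3b1 at 0.59 to Akr1b8 at 7.87.

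Each coating was also set against MH by itself. Against MH, 32 members were called on LN111 (27 lower, 5 higher), where 66.8% of all genes were (39.8% lower, 27% higher). On LN511 the count was 36 (29 lower, 7 higher), against 67.6% of all genes (36.5% lower, 31.1% higher), and on Mat 35 (28 lower, 7 higher), against 67.3% (41% lower, 26.2% higher). These 3 comparisons share the MH arrays. MH 1 to 3 and Mat 1 and 2 were on 1 slide and the other 7 arrays on another. With the slide as a block 32 members were called for culture against MH, where 52.9% of all genes were, and on the first slide alone (Mat against MH) 34, where 62.1% were. Other scalings of the arrays moved the whole distribution: the median over all genes was -0.18 here, 0.18 with quantile scaling, 0.32 with a percentile over probes detected on every array, 0.86 with no scaling and -0.40 with another background correction. The share of all calls that were higher in culture was then 56.1%, 61.6%, 78.1% and 26.8% in place of 42.3%, while the members gave 27 lower and 7 higher with the first 2 of these, 27 and 8 with no scaling, and 28 and 5 with the other background correction.

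The alcohol dehydrogenases lie together within 227 kb of chromosome 2 (probe positions chr2:235764840-235991477, build rn4), in the order Adh7, Adh1c, Adh6a, Adh6, Adh4 and Adh5. Adh1c, named Adh1 on the array, is the class I enzyme that carries most hepatic ethanol oxidation. Its levels were 6.45, 6.26 and 6.10 in MH, 2.30, -2.66 and 0.28 on LN111, 1.47, -5.38 and 0.21 on LN511 and 1.59, -3.58 and 1.61 on Mat. Every cultured array lay below MH, with a spread of several log2 units within each coating, and the mean was 106-fold lower (log2 difference -6.73, SE 1.59, adjusted p = 0.00306). Adh7, the class IV enzyme known as a retinol dehydrogenase of stomach and skin, read 0.88, 1.11 and 0.14 in MH, -4.71, -4.60 and -3.37 on LN111, -5.06, -5.49 and -6.99 on LN511 and -4.76, -5.69 and -5.16 on Mat. The MH arrays were high and all cultured arrays low (55.8-fold; log2 difference -5.80, SE 0.43, adjusted p = 8.73e-07). Adh4, the class II enzyme, read -1.85, -0.09 and -1.74 in MH, -5.58, -7.97 and -6.04 on LN111, -5.95, -6.86 and -6.81 on LN511 and -6.42, -7.60 and -5.89 on Mat. It was above background on 2 of 9 cultured arrays and on none of the LN511 arrays, against which MH was at least 22.8-fold higher (log2 difference -5.34, SE 0.57, adjusted p = 1.21e-05 for culture as a whole).

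Adh5, the class III enzyme, oxidises the glutathione adduct of formaldehyde and is found in nearly every cell. It read 3.63, 4.15 and 3.66 in MH, 1.59, 1.64 and 1.35 on LN111, 1.57, 1.56 and 1.72 on LN511 and 1.77, 1.83 and 1.63 on Mat. It fell least of the tested Adh genes, 4.55-fold, and with the least spread (log2 difference -2.19, SE 0.13, adjusted p = 1.74e-07). Adh6, of class V, was above background on no array, with values of -7.26, -7.49 and -7.08 in MH, -8.36, -8.21 and -7.85 on LN111, -7.01, -7.84 and -7.76 on LN511 and -7.43, -8.43 and -8.15 on Mat. Adh6a was likewise not above background on any array.

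Acetaldehyde and lipid aldehydes are handled by several Aldh enzymes. Aldh2, the mitochondrial enzyme that clears acetaldehyde, read 7.69, 7.57 and 7.75 in MH, 4.74, 4.97 and 4.47 on LN111, 4.97, 5.16 and 5.08 on LN511 and 4.84, 5.03 and 4.84 on Mat. All cultured arrays lay below MH, by 6.82-fold on average (log2 difference -2.77, SE 0.12, adjusted p = 1.84e-08). The second Aldh2 probe differed by -3.17. Aldh1b1, its mitochondrial relative, read 1.03, -0.67 and 1.63 in MH, -3.18, -4.57 and -4.21 on LN111, -3.57, -5.58 and -2.35 on LN511 and -2.72, -4.76 and -2.86 on Mat. The difference was 21.4-fold (log2 difference -4.42, SE 0.72, adjusted p = 0.000285), with the second MH array below the other two. Aldh3a2, the fatty aldehyde dehydrogenase of the endoplasmic reticulum, read 5.08, 5.23 and 4.94 in MH, 1.87, 1.04 and 1.43 on LN111, 1.76, 1.20 and 1.66 on LN511 and 1.77, 1.27 and 1.77 on Mat. It was 11.8-fold lower in culture (log2 difference -3.56, SE 0.20, adjusted p = 9.56e-08).

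The remaining members of the Aldh3 group went the other way. Aldh3a1, an enzyme of cornea and stomach that is known for its induction in liver tumours and by dioxin, read -6.95, -7.07 and -6.84 in MH, -0.64, -3.37 and 0.50 on LN111, -2.13, -4.96 and -0.11 on LN511 and -0.02, -4.16 and -0.20 on Mat. It was above background on all 9 cultured arrays and on no MH array, and was at least 12.4-fold higher in culture (log2 difference 5.28, SE 1.17, adjusted p = 0.00207). With the slide as a block its difference was 3.81 with an adjusted p of 0.148. Aldh3b1, an enzyme for fatty aldehydes, read -4.58, -4.26 and -4.67 in MH, -4.28, -3.64 and -4.26 on LN111, -3.83, -3.57 and -3.82 on LN511 and -4.14, -3.62 and -4.05 on Mat. The groups overlapped and the rise was small (log2 difference 0.59, SE 0.17, adjusted p = 0.0111). It did not pass without the third MH array (0.51, adjusted p = 0.0563), with the slide as a block (0.72, adjusted p = 0.0849) or within the first slide (0.62, adjusted p = 0.0710), and it was -0.12 with another background correction.

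The retinal dehydrogenases, which make retinoic acid, did not move as 1 group. Aldh1a1, the main form of liver, read 1.94, 5.05 and 1.98 in MH, 2.50, 2.91 and 2.15 on LN111, 3.50, 3.14 and 3.55 on LN511 and 2.83, 2.87 and 2.99 on Mat. The second MH array stood more than 3 log2 units above the other MH arrays, and the difference did not pass (log2 difference -0.05, SE 0.55, adjusted p = 0.932). Without that array Aldh1a1 was higher in culture by 0.98 (adjusted p = 0.0015). Aldh1a2, the form of mesothelium and mesenchyme, read -7.30, -7.55 and -7.12 in MH, -7.33, -3.92 and -5.37 on LN111, -6.26, -2.82 and -3.69 on LN511 and -5.36, -2.89 and -5.19 on Mat. It was above background on 7 of 9 cultured arrays and on no MH array, and was at least 1.46-fold higher in culture (log2 difference 2.56, SE 0.85, adjusted p = 0.0192), but it did not pass without the first MH array (2.58, adjusted p = 0.0529) or the second (2.45, adjusted p = 0.0636), with the slide as a block (3.40, adjusted p = 0.0879), or with another background correction (0.11, adjusted p = 0.816). The summed mesothelial markers were also higher in culture, at 0.352 to 0.452 in MH and 9.67 to 75.2 in culture, with 5 of 6 markers higher. Krt7, which is also in the biliary list, entered that sum with a cultured mean level of 3.26, and Wt1 with -4.45. Within each coating Aldh1a2 was highest on the second array, where Wt1 was lowest. The part of these markers in the rise of Aldh1a2 was not tested. Aldh1a3 read -3.11, -2.11 and -2.49 in MH, -1.34, -2.13 and -0.52 on LN111, -2.97, -5.00 and -4.49 on LN511 and -2.22, -3.40 and -2.28 on Mat. Its mean over culture did not pass against MH (log2 difference -0.14, SE 0.47, adjusted p = 0.802), while the LN511 arrays alone were lower than MH (log2 difference -1.59, SE 0.58, adjusted p = 0.0321). Aldh1a7, a rodent relative of Aldh1a1, was above background on 1 of 12 arrays and read -7.31, -7.62 and -7.22 in MH, -6.44, -5.53 and -5.88 on LN111, -6.95, -7.89 and -7.83 on LN511 and -8.95, -7.03 and -7.82 on Mat.

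The enzymes of folate and amino acid metabolism fell with 1 exception. Aldh1l1, the cytosolic enzyme that removes formyl groups from folate, read 3.78, 3.28 and 3.63 in MH, 0.18, -1.46 and -0.62 on LN111, -0.32, -1.83 and -0.66 on LN511 and -0.14, -1.96 and -0.29 on Mat. It was 20.5-fold lower in culture (log2 difference -4.35, SE 0.46, adjusted p = 1.21e-05). Aldh1l2, its mitochondrial counterpart, read 0.57, 0.28 and 0.69 in MH, -3.10, -3.19 and -3.14 on LN111, -3.76, -3.97 and -4.59 on LN511 and -3.76, -4.11 and -3.58 on Mat. It fell 18.4-fold (log2 difference -4.20, SE 0.18, adjusted p = 1.84e-08). Aldh8a1, which acts in tryptophan breakdown, read 1.42, 1.19 and 1.34 in MH, -3.09, -4.54 and -4.75 on LN111, -3.31, -5.91 and -3.89 on LN511 and -3.57, -5.32 and -3.42 on Mat and was 45.8-fold lower (log2 difference -5.52, SE 0.58, adjusted p = 1.15e-05). Aldh6a1, which acts in valine and pyrimidine breakdown, read 3.73, 3.83 and 3.69 in MH, 0.41, -0.51 and -0.83 on LN111, 0.73, -0.03 and 0.75 on LN511 and 0.61, -0.18 and 0.49 on Mat and fell in culture (log2 difference -3.59, SE 0.28, adjusted p = 1.1e-06).

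Aldh4a1 (proline breakdown), Aldh5a1 (the GABA pathway), Aldh7a1 (lysine breakdown) and Aldh9a1 (carnitine synthesis) all fell, by -3.82, -3.81, -3.44 and -2.93, and for each of them every cultured array lay below every MH array. Aldh16a1, a member with no known catalytic activity in mammals, fell by 1.87 on the log2 scale. The exception was Aldh18a1, which makes pyrroline carboxylate from glutamate and so opens the synthesis of proline. It read -7.37, -7.32 and -7.25 in MH, -0.88, -1.75 and -1.05 on LN111, -1.25, -1.55 and -1.85 on LN511 and -1.0, -1.07 and -0.95 on Mat. It was above background on every cultured array and on no MH array, by this probe at least 16.5-fold higher in culture (log2 difference 6.05, SE 0.18, adjusted p = 2.2e-09). Its second probe rose by 2.79 and was also not above background in MH, so the size of the rise is uncertain.

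Among the aldo-keto reductases 2 of the 4 neighbouring Akr1b genes rose, and the other two could not be tested. Akr1b1, Akr1b8, Akr1b10 and Akr1b7 lie in that order within 164 kb of chromosome 4 (probe positions chr4:61652419-61816461, build rn4). Akr1b8, a reductase first described as induced by fibroblast growth factor, read -2.87, -3.03 and -2.65 in MH, 4.72, 5.44 and 5.08 on LN111, 4.84, 5.26 and 4.67 on LN511 and 4.95, 5.23 and 5.01 on Mat. It was the member with the largest rise, 234-fold (log2 difference 7.87, SE 0.17, adjusted p = 6.06e-10), and its second probe rose by 8.14. Akr1b1, aldose reductase, which turns glucose into sorbitol, read -3.58, -3.84 and -3.27 in MH, 0.85, 1.03 and 1.26 on LN111, 0.16, 0.52 and 0.42 on LN511 and 0.57, 0.95 and 0.57 on Mat. It rose 19.3-fold (log2 difference 4.27, SE 0.16, adjusted p = 6.62e-09) and its second probe by 4.02. No array of culture overlapped with MH for either gene.

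Both remaining genes of the stretch stayed near background. Akr1b10 read -7.27, -7.50 and -7.08 in MH, -8.13, -7.05 and -6.50 on LN111, -7.57, -7.07 and -7.72 on LN511 and -7.85, -8.31 and -7.72 on Mat and was above background on no array. Akr1b7, known from adrenal gland and vas deferens, read -5.82, -7.55 and -7.14 in MH, -6.88, -7.19 and -7.73 on LN111, -5.59, -7.88 and -7.82 on LN511 and -5.66, -8.50 and -8.19 on Mat and was above background on 1 array, of Mat. The pseudogene Akr1b1-ps1, on chromosome 6, read -7.49, -7.76 and -7.33 in MH, -3.92, -3.70 and -2.59 on LN111, -4.38, -4.11 and -4.17 on LN511 and -4.21, -3.93 and -4.33 on Mat, above background on all cultured arrays and on no MH array (at least 2.60-fold higher; log2 difference 3.60, SE 0.25, adjusted p = 4.51e-07). Its probe resembles that of Akr1b1 as shown above, and what it measures cannot be told apart from Akr1b1 here.

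**Figure D2:**
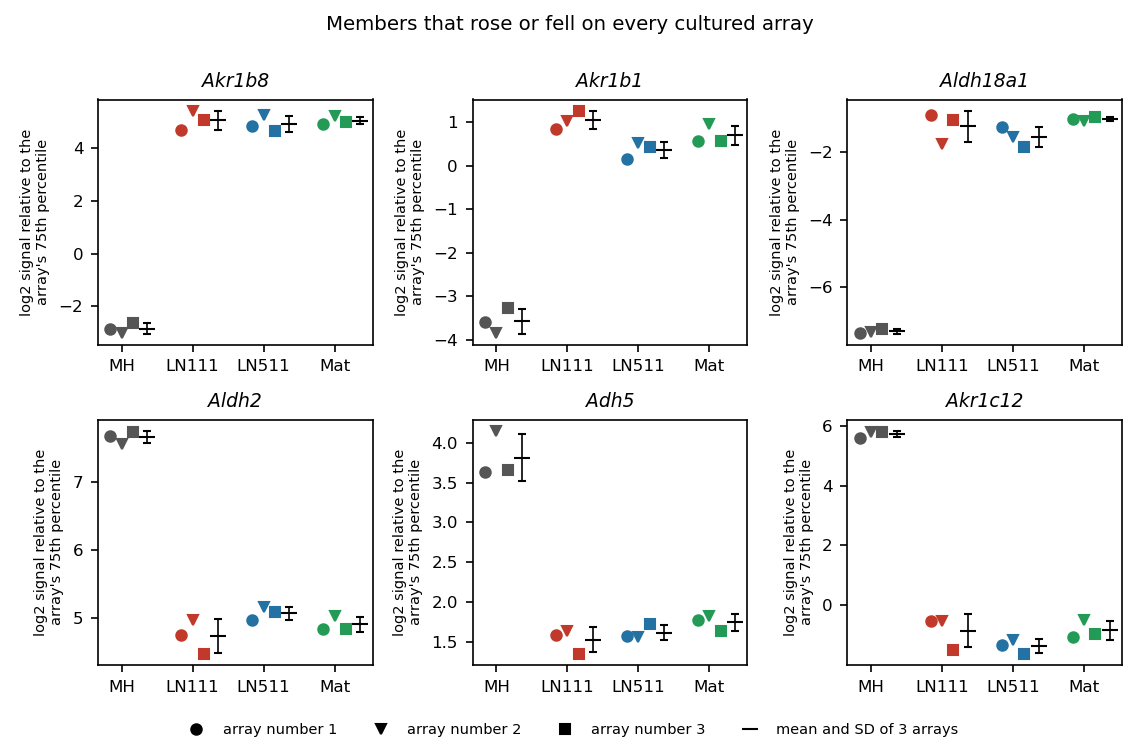
Log2 level on each of the 12 arrays for 6 members, by group, with mean and SD beside the points. Akr1b8 lies between 4.67 and 5.44 in culture and near -2.85 in MH, Aldh18a1 and Akr1b1 are likewise high in culture, and Aldh2, Adh5 and Akr1c12 are low on all cultured arrays.

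The Akr1c genes and Akr1e2 lie within 370 kb of chromosome 17 (probe positions chr17:76971296-77341436, build rn4), and 9 of these 10 genes fell. Most Akr1c enzymes are hydroxysteroid dehydrogenases. Akr1c12, which the array calls Akr1c13, fell most. It read 5.60, 5.78 and 5.78 in MH, -0.51, -0.54 and -1.49 on LN111, -1.34, -1.16 and -1.62 on LN511 and -1.06, -0.48 and -0.97 on Mat. The MH arrays lay far above all cultured arrays, with little spread in either (log2 difference -6.74, SE 0.22, adjusted p = 3.2e-09). Akr1c1 read 2.58, 3.75 and 3.61 in MH, -0.73, -5.06 and -2.51 on LN111, -1.33, -4.89 and -1.52 on LN511 and -0.99, -4.91 and -0.87 on Mat and was 57.5-fold lower (log2 difference -5.85, SE 1.13, adjusted p = 0.000875). Akr1c2 read 6.05, 6.56 and 6.12 in MH, 1.83, -1.43 and -0.17 on LN111, 1.29, -0.24 and 1.28 on LN511 and 1.51, -1.02 and 1.56 on Mat and was 53.0-fold lower (log2 difference -5.73, SE 0.72, adjusted p = 3.97e-05), with -6.09 for its second probe. Both had their lowest cultured values on the arrays numbered 2.

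Akr1c14, a major bile acid and steroid binding reductase of rat liver, read 2.21, 2.68 and 2.25 in MH, -0.31, -0.65 and -1.16 on LN111, -0.45, -0.70 and 0.33 on LN511 and -0.23, -1.07 and -0.26 on Mat. It fell 7.37-fold (log2 difference -2.88, SE 0.27, adjusted p = 4.85e-06). Akr1c3, Akr1c12l1 and Akr1c15 differed by -5.09, -4.77 and -2.84. Akr1c13, which the array calls Akr1c12, differed by -2.58 on the brighter of its probes and by -6.57 on the other (above background on 1 of 9 cultured arrays), so its size is uncertain. Akr1e2 differed by -2.18. Akr1c19 did not pass: its cultured arrays lay between -3.06 and -1.37 and its MH arrays between -2.59 and -2.01 (log2 difference 0.17, SE 0.29, adjusted p = 0.611).

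Akr1d1, the steroid reductase of bile acid synthesis, stands apart from this stretch on chromosome 4. It read 2.49, 2.82 and 2.12 in MH, -1.83, -5.69 and -4.35 on LN111, -2.51, -5.99 and -3.51 on LN511 and -2.43, -5.71 and -2.34 on Mat. It was 78.4-fold lower in culture (log2 difference -6.29, SE 0.98, adjusted p = 0.000198), and its other probes differed by -6.07 and -5.54. Akr1a1, the general aldehyde reductase, read 2.67, 2.45 and 2.74 in MH, 1.90, 2.17 and 2.33 on LN111, 1.92, 2.00 and 1.98 on LN511 and 1.73, 1.98 and 1.89 on Mat. Its fall was small (log2 difference -0.63, SE 0.12, adjusted p = 0.000673), and it was 0.23 with quantile scaling and 0.41 with no scaling, neither of which passed, so its direction depends on the scaling. Akr7a2, which reduces succinic semialdehyde and aflatoxin aldehydes, read 2.91, 2.85 and 3.11 in MH, 0.52, 0.71 and 0.42 on LN111, 0.70, 1.03 and 1.02 on LN511 and 0.55, 0.43 and 0.57 on Mat. It fell 4.92-fold (log2 difference -2.30, SE 0.11, adjusted p = 4.92e-08). Akr7a3, its relative, read 2.61, 2.32 and 3.08 in MH, 2.44, 2.54 and 0.96 on LN111, 2.32, 3.99 and 2.88 on LN511 and 2.19, 2.72 and 2.27 on Mat, with overlapping groups and no difference that passed (log2 difference -0.19, SE 0.40, adjusted p = 0.679).

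Several members varied widely between arrays of 1 coating. On LN111, LN511 and Mat alike, the array numbered 2 was the lowest of the 3 for 12 of 39 members and the highest for 5, against 12.9% and 17.7% of all genes. The 12 were Adh1c, Adh4, Aldh1a3, Aldh1b1, Aldh1l1, Aldh3a1, Aldh3a2, Akr1c1, Akr1c13, Akr1c15, Akr1c2 and Akr1d1. The 5 were Aldh1a2, Aldh2, Aldh3b1, Akr1b8 and Akr7a3. For Adh1c the second array differed from the mean of the other two by -3.95 on LN111, -6.22 on LN511 and -5.18 on Mat. It differed by -3.30, -3.84 and -4.05 for Aldh3a1, and by 2.43, 2.16 and 2.39 for Aldh1a2.

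Marker lists moved with these arrays. The summed hepatocyte markers were lowest on the second array of each coating: 226 against 360 and 244 on LN111, 249 against 499 and 398 on LN511, and 178 against 295 and 366 on Mat. The sum of 6 mesothelial markers was highest there: 30.7 against 9.67 and 17.4, 75.2 against 21.5 and 35.9, and 47.5 against 15.7 and 14.7. Its markers did not move together: Krt7, which is also in the biliary list, and Msln were highest on the arrays numbered 2 of every coating, while Wt1 was lowest there, at -4.01, -8.11 and -5.36 on LN111, LN511 and Mat. The biliary and progenitor sum was also highest there, at 58.7, 113 and 74.9. Their part in the array differences was not tested. Without the 3 arrays numbered 2, culture against MH gave 35 called members, 28 lower and 7 higher, where 70.4% of all genes were called.

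**Figure D3:**
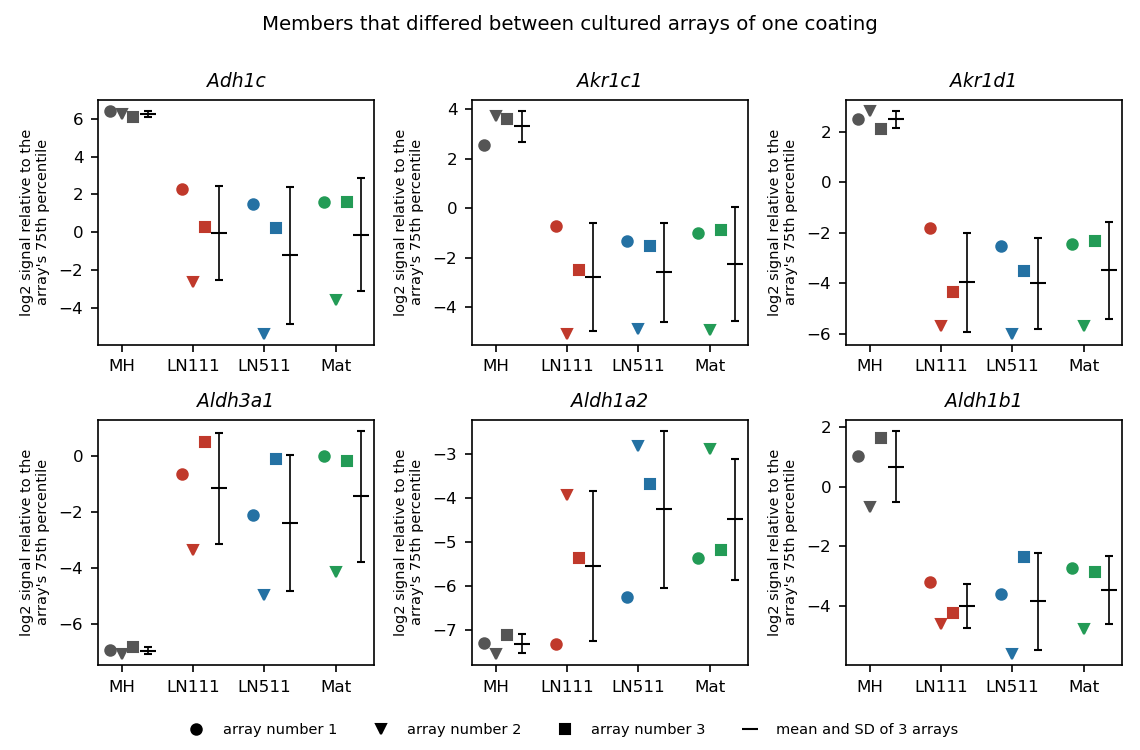
Log2 level on each array for 6 members whose cultured arrays of 1 coating were spread, with mean and SD beside the points. The triangles, arrays numbered 2, are the lowest cultured points of each coating for Adh1c, Akr1c1, Akr1d1, Aldh3a1 and Aldh1b1 and the highest for Aldh1a2.

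The 3 coatings were then compared with each other over the 9 cultured arrays, in which 38 members could be tested. Differences between coatings were few. LN111 against Mat gave no member, and none among all 17930 genes (0%) with limma, with 2 members and 2182 genes at an unadjusted p under 0.05. LN511 against Mat gave no member, where 8.19% of all genes passed (7.04% higher, 1.15% lower), with 3 members at an unadjusted p under 0.05. Mat 1 and 2 were on another slide than all LN111 and LN511 arrays, so coating and slide are largely confounded there. With the slide as a block 131 of 17930 genes passed for LN511 against Mat, and no member. Differences of pathway list genes between coatings, given below, come from the fit without a slide term. LN111 against LN511 gave 4 members, 3 higher and 1 lower on LN111, where 17.9% of all genes passed (6.12% higher, 11.7% lower). The F test over the 3 coatings gave 1 member, Aldh1a3, where 12.9% of all genes passed.

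Of the 2 Aldh1a3 probes, the dimmer was above background on 1 of 9 cultured arrays and differed by 1.26 between LN111 and LN511. By the brighter probe Aldh1a3 was 7.08-fold higher on LN111 than on LN511 (log2 difference 2.82, SE 0.61, adjusted p = 0.0183). Its 3 LN111 levels, -1.34, -2.13 and -0.52, were all above its LN511 levels of -2.97, -5.00 and -4.49, and Mat lay between them at -2.22, -3.40 and -2.28 without passing against either (log2 difference 1.31, SE 0.61, adjusted p = 0.437 for LN111 against Mat and log2 difference -1.52, SE 0.61, adjusted p = 0.197 for LN511 against Mat). Aldh1l2 was higher on LN111 than on LN511, with levels of -3.10, -3.19 and -3.14 against -3.76, -3.97 and -4.59 (log2 difference 0.96, SE 0.23, adjusted p = 0.0253). Akr1b1 was higher by a smaller step, with 0.85, 1.03 and 1.26 against 0.16, 0.52 and 0.42 (log2 difference 0.68, SE 0.17, adjusted p = 0.0333). Aldh1a1 went the other way, with 2.50, 2.91 and 2.15 on LN111 against 3.50, 3.14 and 3.55 on LN511 (log2 difference -0.87, SE 0.21, adjusted p = 0.0254). For all 4 genes the arrays of LN111 and LN511 did not overlap and the Mat mean lay between theirs. The genes were picked by the test on these same arrays, so the lack of overlap adds no support of its own.

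These 4 calls rest on 3 arrays a coating, and leaving out 1 array gave between 0 and 4 calls. There were 0 without the third LN511 array and 1 without the third LN111 or the second LN511 array. Without the first array of LN111 or of LN511 there were 2. Without the third LN111 array all 4 genes lost their call, and the 1 call was of another member. The limma adjusted p was then 0.0581 for Aldh1a3, 0.0566 for Aldh1a1, 0.0648 for Aldh1l2 and 0.0886 for Akr1b1. The F test gave 2 members without the second LN111 array, and 0 without LN111 array 1 or 3, LN511 array 2 or 3 or any Mat array. The call of Aldh1a3 was lost without the third LN111 array (2.42, adjusted p = 0.0581), the second LN511 array (2.40, adjusted p = 0.0569) and the third LN511 array (2.65, adjusted p = 0.0655), and the direction stayed. LN111 and LN511 were all on 1 slide, and within it 1 call was left, Aldh1a3, where 9.36% of all genes passed. The call of Aldh1a1 was lost with quantile scaling (-0.79, adjusted p = 0.0559) and with no scaling (-0.38, adjusted p = 0.498), that of Aldh1l2 with another background correction (0.49, adjusted p = 0.11), and that of Akr1b1 with the slide as a block (0.68, adjusted p = 0.0526). Over 25 alternatives the call was lost in 11 for Akr1b1, in 8 each for Aldh1a1 and Aldh1l2 and in 3 for Aldh1a3, and none of the 4 changed direction. Adh7 and Akr1c15 were also higher on LN111 than on LN511, by 1.62 and 2.84, without passing (adjusted p = 0.0832 and 0.0873).

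Sums of cell type markers also differed between the coatings. The summed level of 12 stellate cell and fibroblast markers was 93.1 to 155 on LN111, 40.8 to 67.1 on Mat, 3.74 to 21.7 on LN511 and 3.62 to 5.51 in MH. The means of Aldh1a3, Aldh1l2 and Akr1b1 all had this order over the coatings. In MH the sum was low, while the Aldh1a3 mean of -2.57 lay above its LN511 mean of -4.15. Of its 10 tested markers, 6 were higher on LN111 than on LN511 (Col1a1, Col1a2, Col3a1, Acta2, Pdgfrb and Hand2). The biliary and progenitor sum ran the opposite way, as Aldh1a1 did: 24.8 to 58.7 on LN111, 46.7 to 74.9 on Mat and 75.6 to 113 on LN511, and 4 of 10 markers were lower on LN111 (Cldn4, Sox9, Cd24 and Epcam). Whether the mix of cells had a part in the coating differences was not tested.

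**Figure D4:**
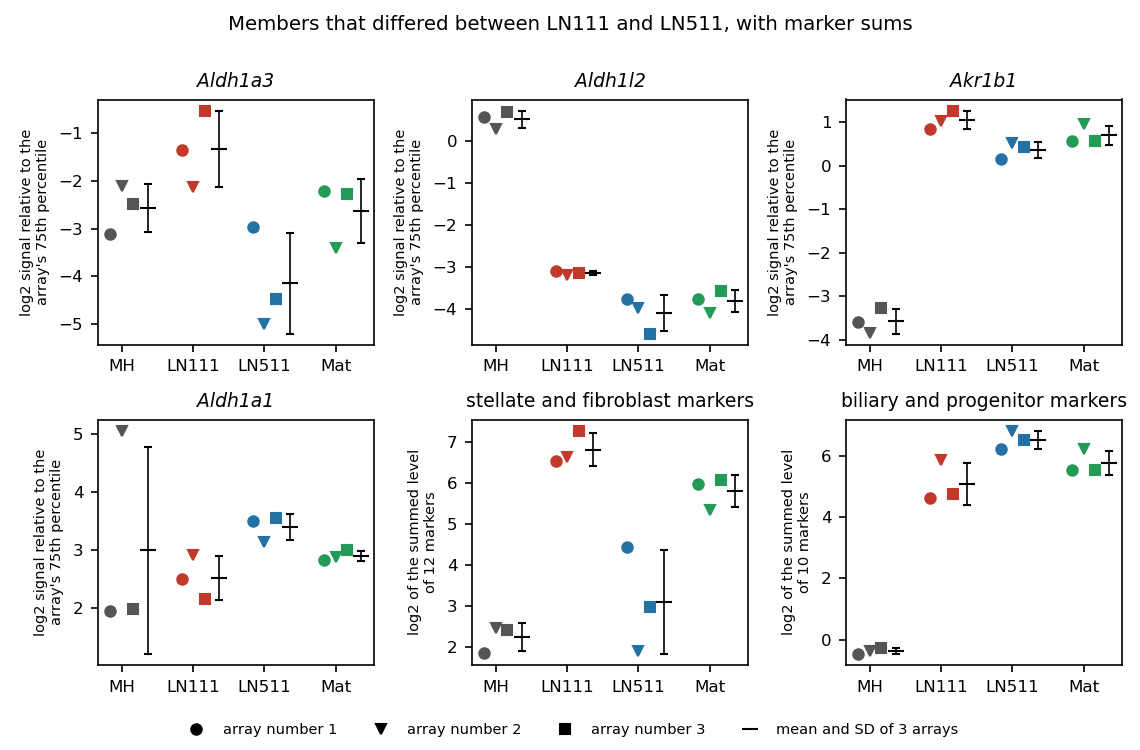
Log2 level on each array for the 4 members that differed between LN111 and LN511, and the log2 of 2 summed marker lists, with mean and SD beside the points. Aldh1a3, Aldh1l2 and Akr1b1 lie higher on LN111 than on LN511 and Aldh1a1 lower. The stellate and fibroblast sum is also higher on LN111 (93.1 to 155) than on LN511 (3.74 to 21.7).

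The genes around the 3 families were taken from 5 pathway lists. In the list of ethanol, acetate and formaldehyde handling 12 of 15 tested genes fell and 3 rose, with a median of -2.69, where 42% of all genes were lower and 30.8% higher, with a median of -0.18. Sult1a1, a sulfotransferase, Esd, which completes the oxidation of formaldehyde begun by Adh5, Mthfd1, the cytosolic folate enzyme, and Acss1, which activates acetate in mitochondria, had the smallest p-values, with differences of -4.03 (SE 0.16), -2.78 (SE 0.12) and -2.45 (SE 0.13) for the first 3. Acss1 was above background on no cultured array and at least 3.66-fold higher in MH. The genes that rose, named after their values were seen, were Mthfd2 (3.89, adjusted p = 1.67e-06), the mitochondrial folate enzyme, its partner Mthfd1l (not above background in MH, at least 3.93-fold higher in culture) and Gss (1.10), which makes glutathione. Cyp2e1, the ethanol-oxidising cytochrome, likewise named after its value was seen, was lower by -7.27 (SE 1.13).

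In the list of carbonyl reductases and the polyol pathway 12 of 16 tested genes fell, 3 rose and 1 did not pass, with a median of -1.53 (all genes: 42% lower, 30.8% higher). Nqo2 (-3.26, SE 0.12), the quinone reductase, Dcxr (-4.98, SE 0.23), which reduces xylulose, and Hagh (-4.49, SE 0.24), of the glyoxalase pathway, fell. Nqo1 (3.17, SE 0.24; adjusted p = 1.02e-06), the quinone reductase known as a target of NRF2, and the carbonyl reductases Cbr1 (2.16) and Cbr3 (1.14) rose. Sord, which takes the sorbitol made by Akr1b1 on to fructose, differed by -4.32 (SE 0.34). Cbr3 was also higher on LN111 than on LN511 by 2.02 (adjusted p = 0.00396) and differed by -1.12 between LN511 and Mat (adjusted p = 0.0434). It was the list's 1 call in each of these comparisons, where 17.9% and 8.19% of all genes passed.

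In the list of retinoid handling 17 of 25 tested genes fell, 2 rose and 6 did not pass, with a median of -1.74. Of all genes, 72.8% were called, 42% lower and 30.8% higher. Rxrg, a retinoid receptor, and Cyp26a1, which breaks down retinoic acid, were above background on no cultured array and were at least 108-fold and 8.57-fold higher in MH. Dhrs3 (-5.45, SE 0.28) and Dhrs4 (-3.57, SE 0.21), which reduce retinal, fell. Crabp2, a retinoic acid carrier, and Sdr16c5, a retinol dehydrogenase, rose from below background in MH, at least 4.70-fold and 2.09-fold. Rdh10, the retinol dehydrogenase that supplies the retinal dehydrogenases, was lower on LN111 than on LN511 with a log2 difference of -1.78 (adjusted p = 0.00389), as were Rxra with -0.77 (adjusted p = 0.0477) and Rdh12 with -0.74 (adjusted p = 0.0401), while Rarb (1.84, adjusted p = 0.0411) and Rbp2 (0.85, adjusted p = 0.0492) were higher. Rdh10 and Rdh12 were also higher on LN511 than on Mat, by 0.93 (adjusted p = 0.0486) and 1.06 (adjusted p = 0.0177). These were 5 calls of the list for LN111 against LN511, where 17.9% of all genes passed. For LN511 against Mat they were 2, where 8.19% did.

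In the list of steroid reduction 16 of 19 tested genes fell, 2 rose and 1 did not pass, with a median of -4.32 (all genes: 42% lower, 30.8% higher). Amacr (-6.84, SE 0.22), of bile acid side chain oxidation, Srd5a1 (-5.76, SE 0.25), a steroid reductase, Hsd17b2 (-4.85, SE 0.26) and Hsd3b2 (-4.35, SE 0.29), both steroid dehydrogenases, had the smallest p-values. Hsd3b1 (4.28, adjusted p = 7.77e-05) and Srd5a3 (2.09, adjusted p = 5.65e-07) rose. Between LN111 and LN511, Hsd17b2, Srd5a2 and Hsd11b2 were lower on LN111 with -1.16, -0.83 and -0.88, and Hsd3b5 and Cyp7b1 higher by 1.27 and 3.33, with adjusted p-values between 0.0141 and 0.048. Srd5a2 was also higher on LN511 than on Mat by 1.18 (adjusted p = 0.00612). These were 5 calls of the list for LN111 against LN511, where 17.9% of all genes passed. For LN511 against Mat there was 1, where 8.19% did.

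The partners of the catabolic aldehyde dehydrogenases fell in 20 of 22 tested genes and rose in 2, with a median of -4.93 (all genes: 42% lower, 30.8% higher). Aass, which supplies Aldh7a1 in lysine breakdown, was above background on no cultured array and at least 31.0-fold higher in MH. Bckdha (-2.45, SE 0.09) and Hibadh (-3.12, SE 0.13), which precede Aldh6a1 in valine breakdown, and Oat (-3.36, SE 0.19), the ornithine aminotransferase, fell. Pycr1, which finishes the proline synthesis that Aldh18a1 begins, rose (1.5, adjusted p = 0.000893). Prodh (-4.89, SE 0.36), which starts the breakdown of proline that Aldh4a1 continues, and its relative Prodh2 fell. None of this list differed between coatings.

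**Figure D5:**
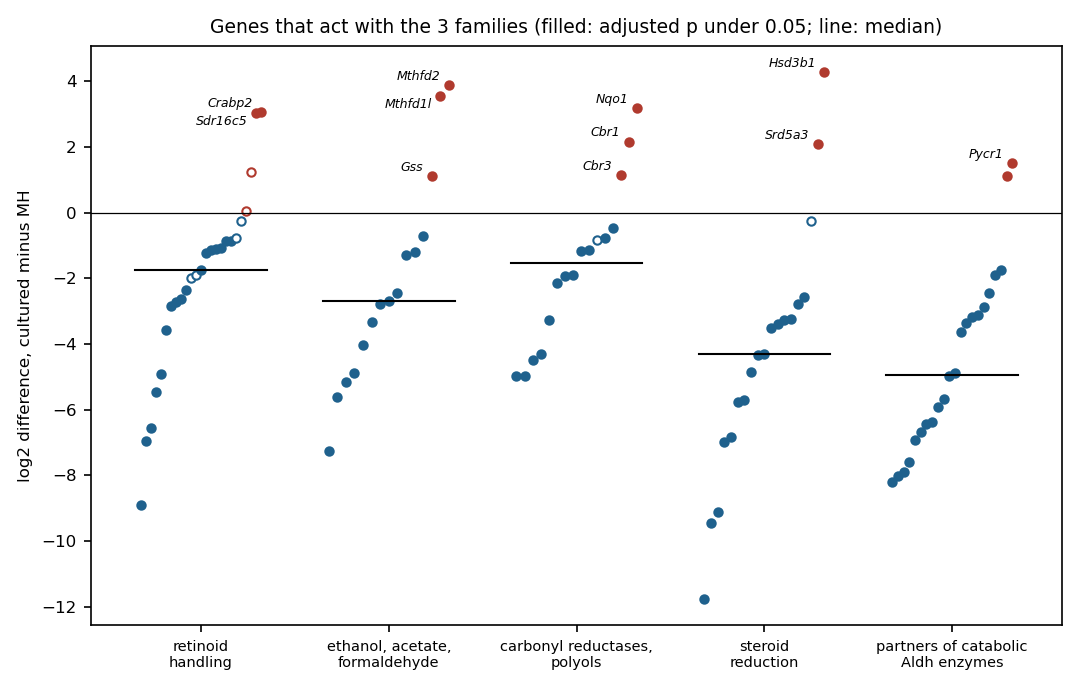
Log2 difference between the cultured mean and MH for the tested genes of 5 pathway lists, in rank order within each list; filled points passed an adjusted p of 0.05 and lines are medians. Most points lie below 0, with medians from -4.93 to -1.53, and genes that rose carry their names, except 1 in the last list; Crabp2, Sdr16c5 and Mthfd1l were not above background in MH, so their plotted differences are not bounds.

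Over the 9 cultured arrays the genes whose levels ran closest to 3 of the members were picked by Pearson's correlation, as a description. Adh1c ran closest to Ftcd (r = 0.997), Mat1a (0.996) and Apoc3 (0.996), all of them genes of hepatocytes. Akr1b8 ran closest to Lhx3 (0.979), Ugt2b7 (0.938) and Rab27b (0.907). Aldh1a1 ran closest to Camsap3 (0.983), Bik (0.981) and Artn (0.974). The arrays share coatings and numbers, and the top ranks were taken over all tested genes.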

How the data were processed

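Total RNA (100 ng per sample) was labelled with Cy3 and hybridised to 12 one-colour Agilent rat arrays. The deposited intensity of each spot is Agilent Feature Extraction's processed signal (version 10.7, per the submitters' processing notes), which was background-subtracted and detrended within each array, per the file headers. The deposited value table held the same intensity (largest log2 difference 0.0072).

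Control spots and spots flagged as outliers were dropped, and repeated spots of 1 probe were reduced to their mean. Log2 of the signal was taken minus the 75th percentile of each array, since no scaling between arrays had been applied. Genes were named through RefSeq (GRCr8) accessions where these matched (21109 of 45598 probes directly, others by another accession or symbol), and 16365 probes kept the files' name. The brightest probe above background stood for a gene. limma 3.58.1 in R 4.3.3 was fitted to all 12 arrays for culture against MH and to the 9 cultured arrays for the coatings, with Benjamini-Hochberg adjustment over all genes tested and a threshold of 0.05. The test was tested on simulated data. An "at least" fold sets the bright group's mean against the lowest signal well above background, or the dim probe's own where higher. It holds only for the probe and background correction used. Over the alternatives the lowest log2 differences were 2.53 for Aldh18a1, 2.26 for Aldh3a1 and 0.58 for Akr1b1-ps1. The number of arrays limits the precision.

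The members and lists were chosen with earlier results of these data known. Values of every array are given for a fixed set of members, the 6 largest rises and 6 largest falls, and all members called between coatings. The rule for each list was the 4 genes of smallest p and all called between coatings. List genes beyond this rule, such as Sord, Cbr1, Crabp2, Sdr16c5, Hsd3b1, Srd5a3, Pycr1 and Prodh, were named with their values known. Alternatives covered background correction, scaling, the filter on dim probes, probe choice, slide, replicate number, array weights and each array left out. They were followed gene by gene for the members only, not for genes of the pathway lists. A gene of a pathway list is not reported here.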

Additional observations from a re-analysis of the deposited data

Results flagged for a closer look

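Against the same MH arrays, 4 members differed between LN111 and LN511 by the test of the difference itself, with limma's adjusted p over all genes. The log2 difference of LN111 minus LN511 was 2.82 for Aldh1a3 (adjusted p = 0.0183), 0.96 for Aldh1l2 (adjusted p = 0.0253), 0.68 for Akr1b1 (adjusted p = 0.0333) and -0.87 for Aldh1a1 (adjusted p = 0.0254). In each gene all 3 arrays of 1 coating lay on the same side of all 3 of the other. These genes were picked by that test on the same arrays, so this separation is not further support.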

How the results depend on the processing

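Culture against MH gave 35 called members, and 24 (3 higher, 21 lower) when only probes above background on all arrays were tested. That filter gave 9400 calls among all 12991 genes tested, 3186 higher and 6214 lower. Of 39 members, 33 stayed on their side of the threshold under every alternative that gave them a value; the called ones among these kept their direction, while the uncalled Akr7a3 (-0.49 to 0.85) and Aldh1a3 (-0.55 to 0.9) changed sign without passing, as did Akr1c19 (-0.22 with the slide as a block; 1.21 and passing with no scaling). Changes of sign in which either value passed were 4: Aldh3b1 was -0.12 with normexp background correction, Akr1a1 was 0.23 with quantile scaling and 0.41 with no scaling, and Aldh1a1 was 0.98 without MH replicate 2 (-0.58 to 0.98 over the arrays left out, -0.05 as reported). Between LN511 and Mat, where no member was called, 1 was with normexp, 19 (all lower) with no scaling, 1 with the replicate block and 13 with array weights. Of all 17930 genes these settings called 3543, 10985 (10539 of them lower), 2384 and 8126. The F test, with 1 call, gave 3 with quantile scaling (all genes: 2074 of 17921) and 13 with no scaling (6517 of 17930). It gave 3 with the percentile over probes detected on all arrays (2110 of 17930). There were 0 without a filter (2006 of 35877), 0 with the slide as a block (1264 of 17930) and 0 within slide (785 of 18634). With the replicate block 3 passed (3897 of 17930), with array weights 10 (7142 of 17930) and with a trend and robust prior 2 (2320 of 17930). LN111 against LN511, with 4 calls, gave 1 without a filter (all genes: 2463 of 35877) and 1 within slide (1745 of 18634). Its 4 with quantile scaling were all higher, without Aldh1a1 (all genes: 3024 of 17921, 1514 of them higher). Leaving out 1 array gave 0 to 4 calls for LN111 against LN511 and 0 to 2 for the F test. The cause was not tested.

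Over all genes, the alternatives gave 9400 to 22578 calls for culture against MH (13788 as reported), 8154 to 19270 for LN111 (12647), 8395 to 14195 for LN511 (12802) and 8744 to 22892 for Mat (12740) against MH. They gave 87 to 10985 for LN511 against Mat (1469), 1745 to 4878 for LN111 against LN511 (3203), 785 to 7142 for the F test (2317) and 0 to 37 for LN111 against Mat (0). The arrays' numbers were not taken as pairing: same-numbered cultured arrays correlated in their deviations at 0.49 to 0.59 (number 1), 0.56 to 0.76 (number 2) and 0.09 to 0.16 (number 3), and 7 of 9 correlated best with their own number. With the replicate block LN111 against LN511 gave 5 calls, where 4878 of 17930 genes passed. Leaving out the cultured arrays numbered 2, chosen after seeing the data, gave 3, where 17.6% of all genes passed. Signal near background limits Adh4, Aldh1a2, Akr1c3 and the 6 untested members.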
